A study of Drosophila melanogaster with 2 samples.

Results

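The Imd pathway is the branch of fly innate immunity that answers mainly to bacteria with DAP-type peptidoglycan and ends in the NF-κB factor Relish. Binding of tagged Dif, an NF-κB factor of the Toll branch, was examined at 10 genes of this pathway, namely its intracellular signalling core and Rel, the gene of Relish. The members were taken by name (imd, Fadd, Dredd, Tak1, Tab2, key, IKKbeta, Rel, ben and Diap2) out of 13945 protein-coding genes on the arms with peaks. For each gene, the summits of chromatin immunoprecipitation sequencing (ChIP-seq) peaks were counted in a window of the gene body and 5 kb on each side, with genes from the Ensembl BDGP6 annotation in dm6 coordinates. The windows ran from 11.2 kb for Fadd to 22.0 kb for Tab2, and no 2 of them overlapped.

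The larvae came from a Drosophila melanogaster line that stably expresses Dif with GFP at its C terminus, and were used whole, both sexes together, as wandering larvae of the third instar. An antibody to GFP was used for the precipitation. There is 1 group, with biological replicates 3 and 4; the labels name no infection or other treatment, and their age is given as unknown. Dif-GFP is present in any tissue where its transgene is active, so a peak cannot be assigned to fat body, blood cells or gut, and no larvae without the tag are among the samples. Whether untagged Dif is also made in the line is not given in the labels. Depth is unknown for both libraries, since the files are peak lists without read counts. The recorded size range was 200 to 275 for replicate 3 and 200 to 300 for replicate 4.

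In the pathway, peptidoglycan receptors act through Imd, an adaptor with a death domain. Imd recruits Fadd, which in turn binds the caspase Dredd. Dredd cleaves Imd, which is then decorated with ubiquitin chains by the ligase Diap2 together with conjugating enzymes such as Bendless (ben). The chains serve as a platform for the kinase Tak1 with its partner Tab2 and for the IκB kinase complex of IKKbeta and Kenny (key). Relish is phosphorylated by this complex and cleaved by Dredd, and its N-terminal part moves to the nucleus to switch on antimicrobial peptide genes.

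The authors' list named optimal was thresholded by irreproducible discovery rate (IDR), which scores the reproducibility of a peak's rank between replicates. Its summits, called IDR summits, lay in the windows of 9 of the 10 genes. Of all protein-coding genes, 38.4% had an IDR summit in a window of this kind, and of the 8881 genes whose length fell between that of the shortest and the longest member (1163 to 11980 bp), 39.4% had one. The 9 genes held 13 of the 4175 IDR summits, or 0.0911 per kb of window, against 0.0406 per kb over the windows of all protein-coding genes and 0.0312 per kb over the arms. The median was 1 summit a window for the 10 genes and 0 for all genes. Fadd had no IDR summit.

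A window of this size in the compact fly genome also takes in neighbouring genes, from 2 others at ben and Tak1 to 6 at imd, Dredd, Tab2 and IKKbeta. Of the 13 summits, 6 had a transcription start site (TSS) of the member itself as the nearest TSS, and 7 were nearest to the TSS of a neighbour. Own-TSS summits were found at imd, ben, Tak1, Tab2, key and Rel, 1 at each, so 6 of 10 genes owned the TSS nearest to a summit, against 16.5% of protein-coding genes. At imd, ben, Tak1, key and Rel the summit was within 500 bp of the TSS. Of the 13 summits, 10 were within 500 bp of a TSS of any gene, against 59.1% of all IDR summits. The 5 of 10 genes with one at their own TSS compare with 15.3% of all protein-coding genes and with 14.3% of those in the length range of the members. Dredd, Diap2 and IKKbeta had IDR summits that were nearest to the TSS of another gene only.

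**Figure D1:**
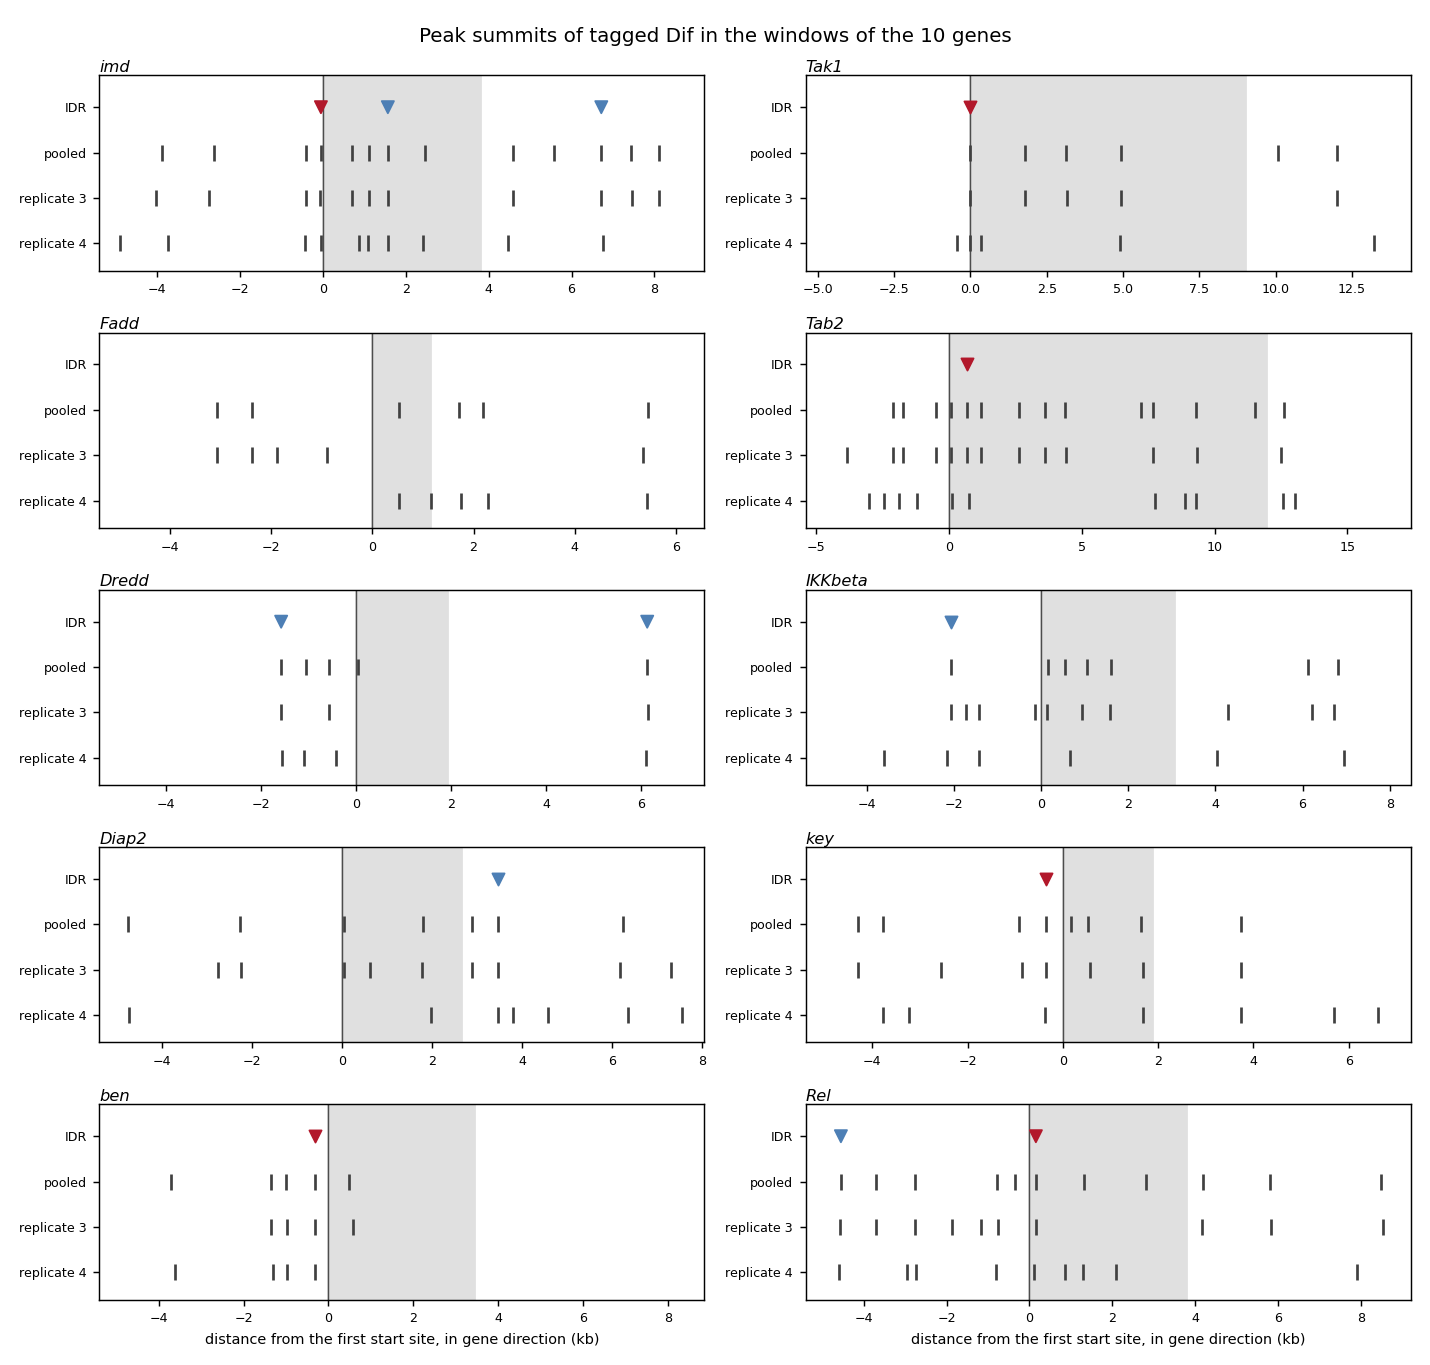
Position of every summit in the windows of the 10 genes, by list (rows) and by distance in kb from the first start site, in the direction of the gene, whose body is shaded. Triangles are IDR summits, red where the nearest TSS is the gene's own and blue where it is a neighbour's, and bars are summits of the pooled and replicate lists. The red triangles sit at or near the start of 6 genes, and Fadd has no triangle.

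Among the adaptor and caspase genes, imd had a strong peak at its start, while Fadd and Dredd had none at theirs. The gene imd (FBgn0013983, 2R, 18409796 to 18413599, minus strand) had 3 IDR summits in its window. The strongest, with the peak at 18413585 to 18413755, lay 52 bp upstream of the distal imd TSS, in an intron of the overlapping gene Dp1. Its signal of 419 ranked 254 of 4175. In replicate 3 it had a signal of 318 and rank 272, and in replicate 4 a signal of 150 and rank 140, so it was high in both. The signal is the authors' own value and its scale differs between lists, so ranks are what can be set side by side.

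The other 2 summits at imd belonged by distance to neighbours. One, at 18412035, was in an intron of imd and the 5′ UTR of Dp1, 8 bp from a Dp1 TSS and 503 bp upstream of the proximal imd TSS, with a signal of 159. It ranked 1208 in replicate 3 and 21148 in replicate 4, with a signal of 146 and of 8.97. That peak was thus carried by replicate 3. The other, at 18406882, lay 42 bp from the TSS of GstE7, a glutathione S-transferase gene, with a signal of 150 and ranks of 1574 and 6234.

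At Fadd (FBgn0038928, 3R, 22034455 to 22035617, plus strand) the lists of peaks and background, called relaxed lists here, held 6 pooled summits, 5 in replicate 3 and 5 in replicate 4. The strongest pooled one had a signal of 68.7 and rank 5549, below the lowest signal of the IDR list, which was 83.9. It was 5459 bp downstream of the Fadd TSS, in intergenic sequence beyond the gene. No list had a summit within 500 bp of the Fadd TSS, the nearest pooled one being 518 bp inside the gene with a signal of 26.0 and a rank of 29122 of 30000. Fadd is the shortest of the 10 genes.

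Dredd (FBgn0020381, X, 633622 to 635545, minus strand) had 2 IDR summits in its window, both weak and both at neighbours. One, at 637122, was in an intron of su(sable), 680 bp from its TSS and 1577 bp upstream of that of Dredd, with a signal of 101. It ranked 2247 in replicate 3 and 26561 in replicate 4, near the end of that list. The other, at 629422, was in the 5′ UTR of the ribosomal protein gene RpL36, 6 bp from its TSS, with a signal of 98.8 and ranks of 4816 and 2389. At the Dredd TSS itself, the pooled list had a summit 31 bp inside the gene with a signal of 31.4 and a rank of 21085. Replicate 3 had no summit within 500 bp, and the one of replicate 4 ranked 14850.

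The ubiquitin enzymes differed from each other. Diap2 (FBgn0015247, 2R, 15932170 to 15934825, minus strand) had 1 IDR summit in its window, at 15931350, past its 3′ end in an intron of bdg and 585 bp from a bdg TSS. Its signal of 92.8 ranked 3606, among the weakest of the 13, and it ranked 4984 and 6476 in replicates 3 and 4. At the start of Diap2, shared with the divergent gene bug, the pooled list had a summit with a signal of 53.1 and a rank of 8284. Its −log10 q of 1.98 fell just short of a q of 0.01. Replicate 3 had a summit there with a signal of 63.6 and rank 4285, while replicate 4 had none within 500 bp. The strongest summit of replicate 3 in the window was 8 bp from a bdg TSS, with a signal of 82.4 and rank 2956, and it had no counterpart in replicate 4 within 100 bp.

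The gene ben (FBgn0000173, X, 13996345 to 13999805, plus strand), which encodes the fly Ubc13, had 1 IDR summit, and it was as strong as that of imd. The summit lay in intergenic sequence 318 bp upstream of the TSS, with a signal of 417 and rank 256. It ranked 207 in replicate 3, with a signal of 357, and 1450 in replicate 4, with a signal of 53.3. Of the 6 own-TSS summits this was the strongest in replicate 3 and the weakest in replicate 4. Flanking relaxed summits at about 1 kb and 1.4 kb upstream were found in both replicates, with ranks of 20752 and 10041 in replicate 3 and of 4591 and 2892 in replicate 4.

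Among the kinase genes, both partners of the Tak1 complex and 1 subunit of the IκB kinase had an own-TSS summit. Tak1 (FBgn0026323, X, 20515908 to 20524928, minus strand) had its IDR summit 15 bp upstream of its distal TSS, with a signal of 249 and rank 734. In replicate 3 the signal was 150 and the rank 1146, and in replicate 4 they were 85.3 and 554. The long gene body held 3 further pooled summits, of which the strongest, 3137 bp inside the gene, had a signal of 59.7. It ranked 5449 in replicate 3 and had no summit of replicate 4 within 100 bp.

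Tab2 (FBgn0086358, 2R, 19292529 to 19304508, plus strand), whose product binds the ubiquitin chains, had 1 IDR summit. It was in an intron 685 bp downstream of the first TSS, at 19293214, with a signal of 191 and rank 1162. It ranked 1560 in replicate 3 (signal 125) and 1240 in replicate 4 (signal 57.4). At the first TSS itself, 65 bp inside, the pooled summit had a signal of 43.4 and rank 11615. Tab2 also had 14 pooled summits, the most of the 10 genes, and is the longest of them.

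The subunits of the IκB kinase differed as well. The gene key (FBgn0041205, 2R, 24785514 to 24787411, minus strand), which encodes the regulatory subunit, had an IDR summit in intergenic sequence 360 bp upstream of its TSS, with a signal of 146 and rank 1815. It was far higher in the order of replicate 4, with rank 779 and a signal of 73.2, than in that of replicate 3, with rank 3836 and a signal of 68.9. IKKbeta (FBgn0024222, 3R, 16046347 to 16049421, minus strand), the catalytic subunit also known as ird5, had its IDR summit in an intron of msps, 397 bp from an msps TSS and 2060 bp upstream of its own. That summit had a signal of 113, with rank 1758 in replicate 3 and 7647 in replicate 4. At the IKKbeta TSS the pooled list had a summit 151 bp inside the gene with a signal of 65.5, rank 5975 and a −log10 q of 2.80, below the IDR list. It ranked 8530 in replicate 3, and replicate 4 had none within 500 bp of the TSS.

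Rel (FBgn0014018, 3R, 9044183 to 9047977, minus strand) closes the pathway and had 2 IDR summits. Its own lay in the 5′ UTR, 8 bp downstream of 1 of its 4 TSSs and in an intron of the overlapping gene Nmdmc, with the peak at 9047699 to 9047942. The signal was 204 and the rank 1032. It ranked 1359 in replicate 3 (signal 136) and 773 in replicate 4 (signal 73.4), so it was among the strong peaks of both. The second was in the 5′ UTR of Kdm2, a histone demethylase gene, 30 bp from its TSS and 4548 bp upstream of the nearest Rel TSS. Its signal was 159, and it ranked 1762 and 2814.

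Sequence under the peaks is shown for ben and Tak1, which have an own-TSS summit upstream of the transcript. It is also shown for the msps intron in the window of IKKbeta, which has a GA repeat. The own-TSS summits of imd and key were upstream as well, and their sequence is not shown. The runs are from the Release 6 assembly (dm6), 5′ to 3′ on the strand of ben, Tak1 and IKKbeta. They are the parts of each peak outside annotated UTRs, which is the whole peak at ben and msps, and none is shown for Rel, whose peak left no such run of 30 bases. Capitals mark the 21 bases centred on the summit in the runs of ben and Tak1, and the GA repeat on the opposite strand, CTCTCTC, in that of msps.
ben, chrX:13995941-13996126, plus strand: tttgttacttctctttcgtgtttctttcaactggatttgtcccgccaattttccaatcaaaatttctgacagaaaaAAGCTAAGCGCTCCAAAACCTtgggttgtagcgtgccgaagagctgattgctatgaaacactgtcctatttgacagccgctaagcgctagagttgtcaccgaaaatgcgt
Tak1, chrX:20524929-20525036, minus strand: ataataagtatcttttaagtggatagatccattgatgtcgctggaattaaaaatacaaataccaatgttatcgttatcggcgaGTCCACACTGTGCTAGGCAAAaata
msps (window of IKKbeta), chr3R:16051359-16051602, minus strand: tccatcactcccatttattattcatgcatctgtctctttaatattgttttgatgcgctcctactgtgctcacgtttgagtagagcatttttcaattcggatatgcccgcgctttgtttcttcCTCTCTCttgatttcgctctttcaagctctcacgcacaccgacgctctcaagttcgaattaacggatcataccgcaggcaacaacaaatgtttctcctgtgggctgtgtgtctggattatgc
The runs of ben and Tak1 held neither GAGAGAG nor GGGAA, a core of NF-κB sites, on either strand, and 57.0% and 65.7% of their bases were A or T. The msps run held 1 GAGAGAG match, 4 bp from the summit, and no GGGAA.

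Motif matches on either strand were then counted within 100 bp of all 13 summits. GAGAGAG, the site of GAGA factor, was present at 4 of them, against 34.6% of the 4175 IDR windows and 7.62% of promoters, taken as 250 bp before to 50 bp after a TSS. The 4 were the own-TSS summits of imd and Tab2 and the neighbour summits at bdg and msps. The Tab2 window had 8 overlapping matches, that is a longer GA repeat, with 1 centred on the summit, and imd had 1 match 26 bp away. GGGAA was present at 3 of the 13, at Rel (23 bp from the summit), ben (98 bp, outside the printed run) and bdg (72 bp), against 28.8% of IDR windows and 37.3% of promoters. The broad κB motif, a full NF-κB site, was present at 0 of the 13, where 0.862% of IDR windows and 1.68% of promoters held it. CAGCTG was present at 1, the bdg summit, against 13.6% of IDR windows and 17.9% of promoters. DRE (TATCGATA) was found at 1, the RpL36 summit, against 1.63% of IDR windows and 7.98% of promoters. CACGTG was at 1, that of su(sable), against 3.47% and 4.01%, and GATAAG at 1, that of GstE7, against 8.46% and 18.5%. CAGGTAG, the Zelda site, was at 0, against 1.7% and 1.69%. The promoter stretch is longer than a summit window and so has more room for a match, which makes the promoter shares not like for like. With 13 windows, each of these shares rests on a handful of matches, and the absence of a match says only that these letters are not in the window.

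**Figure D2:**
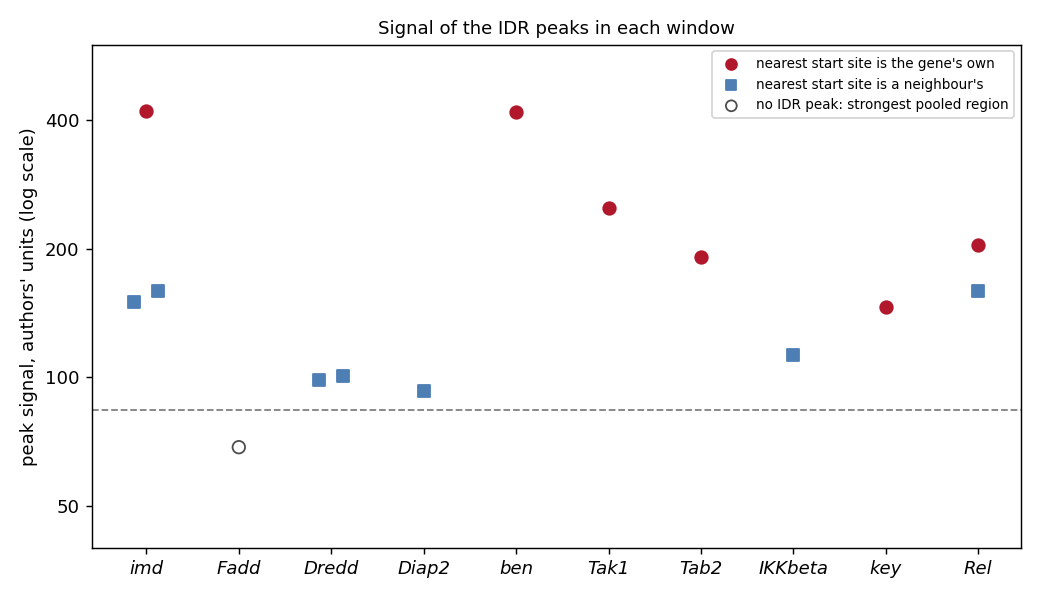
Signal of each of the 13 IDR summits in the authors' units, on a log scale, by gene in pathway order, with squares of the same gene set side by side. The dashed line is the lowest signal of the IDR list (83.9), and the open circle is the strongest pooled region at Fadd (68.7). Own-TSS summits (red circles) lie between 146 at key and 419 at imd, and summits nearest to a neighbour's TSS (blue squares) between 92.8 and 159.

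The split between own-TSS and neighbour summits was wider in replicate 4 than in replicate 3. All 13 had a summit within 100 bp in the list of each replicate, against 85.4% of IDR summits with one in both lists. Of the 6 own-TSS summits, 6 were among the 4175 strongest peaks of both replicates, and of the 7 neighbour summits 1 was, that of Kdm2. This makes 7 of 13, against 54.4% of all IDR summits. The replicate 4 matches of Tab2, Rel and Kdm2 lay 65, 53 and 53 bp away, so they rest on the 100 bp allowance. The own-TSS ranks ran from 207 to 3836 in replicate 3, with a median of 1252, and from 140 to 1450 in replicate 4, with a median of 776. The neighbour ranks ran from 1208 to 4984 with a median of 1762 in replicate 3, and from 2389 to 26561 with a median of 6476 in replicate 4. Over all matched IDR peaks the median ranks were 2060 and 2147. In replicate 3 the ranges of both kinds overlapped, with key at 3836 well down the order, while in replicate 4 they did not. The IDR list was itself made from both replicates, and its signals and ranks at the 13 summits are those of the pooled list. A summit in it can thus be weak in 1 replicate. With 2 replicates, no test of these differences is possible.

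**Figure D3:**
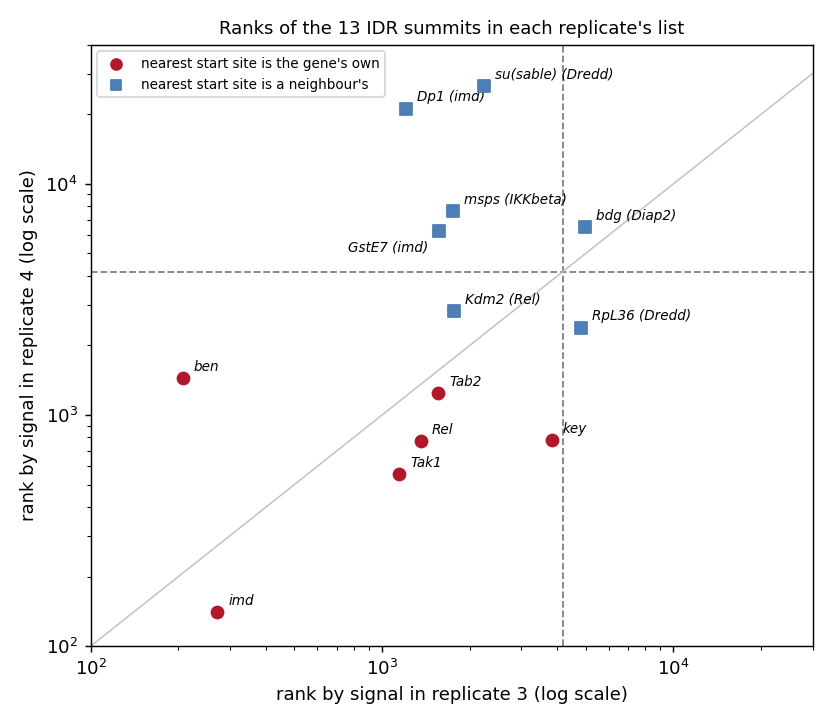
Rank by signal in replicate 3 (x axis) and replicate 4 (y axis), both on log scales, of the 13 IDR summits, where rank 1 is the strongest and dashed lines mark rank 4175. Labels give the gene with the nearest TSS, with the member in parentheses where it is another gene. The 6 own-TSS summits (red) lie at the lower left, inside both dashed lines, and su(sable) and Dp1 lie highest, with ranks of 26561 and 21148 in replicate 4.

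The relaxed lists had summits in the windows of all 10 genes, which separates them little from other genes. A pooled summit was in the window of 86.8% of protein-coding genes, a summit of replicate 3 in that of 87.3% and one of replicate 4 in that of 88.3%. Among pooled regions with a q of at most 0.01, all 10 genes had one, against 57.9% of protein-coding genes. The 10 windows held 82 pooled summits, 77 of replicate 3 and 68 of replicate 4, of which 24, 27 and 36 had such a q. These are 29.3%, 35.1% and 52.9%, against 27.5%, 33.6% and 41.7% of all regions in the lists, so the pooled and replicate 3 shares are near those of the whole lists. The number of pooled summits a window ran from 5 at Dredd and ben to 14 at Tab2, with a median of 7, against a median of 4 over all protein-coding genes.

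Within 500 bp of a TSS, 9 of the 10 genes had a pooled summit, all but Fadd, while 8 had one in replicate 3 and 7 in replicate 4. Of all protein-coding genes, 50.5%, 50.3% and 51.5% had one in these lists. Among the 4175 strongest peaks of replicate 3, the TSSs of 5 members had one, against 15.6% of protein-coding genes, and 5 did in replicate 4, against 14.8%. In each replicate these were imd, ben, Tak1, key and Rel. The pooled TSS summits of the remaining members ranked 5975 at IKKbeta, 8284 at Diap2, 11615 at Tab2 and 21085 at Dredd, so the order of signal at start sites ran imd, ben, Tak1, Rel, key, IKKbeta, Diap2, Tab2 and Dredd. The values of imd and ben, 419 and 417, are next to each other in rank (254 and 256), and their order turned between replicates.

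Other genes of the pathway were taken from a list of 32 that was written for this report, with its role classes. Of these, 17 had an IDR summit in the window (53.1%, against 38.4% of all protein-coding genes) and 10 one within 500 bp of a TSS (31.2%, against 15.3%). Some, such as nub, dnr1 and zfh1, are longer than any member, so their windows are wider. No share over genes of like length was taken for this list. Negative regulators of the pathway made up 12 of the 17, out of 15 in the list. For 6 of these 15, an IDR summit lay no further than 500 bp from the regulator's own TSS. The strongest peaks of casp, dnr1, POSH, trbd, RYBP, SkpA and slmb were nearest to the TSS of another gene. Those of CYLD, scny, faf, nub and zfh1 were nearest to their own. An IDR summit in the window was found for 3 of 8 peptidoglycan receptors and amidases and for 1 of 3 ubiquitin enzymes (eff). One was found for 1 of 4 genes of the JNK arm downstream of Tak1 (Jra) and for neither nuclear partner, akirin or Charon. The 5 strongest were slmb (643), dnr1 (569), Jra (506), nub (325) and eff (315). The genes slmb and dnr1 encode a ubiquitin ligase subunit and a ligase that restrains Dredd, and nub encodes a POU factor listed here with the negative regulators. By nearest TSS, the slmb peak was at Ice2 (10 bp) and the Jra peak at 14-3-3zeta (73 bp). The dnr1 peak was in an intron of the gene, and the nearest TSS was that of CG11362, 7517 bp away. Those of nub and eff were nearest to a TSS of the gene itself, at 103 and 1497 bp. Of the receptors, PGRP-LC, which senses peptidoglycan at the cell surface, had a summit with a signal of 105, 19 bp from its TSS. The pathway's inhibitor pirk, Uev1A, the partner of ben, and Mkk4, hep and bsk of the JNK arm had no IDR summit.

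Of 11 Toll signalling genes, 9 had an IDR summit in the window (81.8%) and 7 one within 500 bp of a TSS (63.6%), with 19 distinct summits. The window of Dif, the tagged gene, held 6 and that of dl, its neighbour and relative, held 5, with 1 summit in both windows. The 5 strongest were Dif (643), dl (312), spz (299), tub (229) and Tl (202). By nearest TSS, the peaks of spz and Tl were at the gene itself (102 and 19 bp). That of tub was at CG34112 (113 bp), that of Dif, in an intron of the gene, at lncRNA:CR44409 (194 bp) and that of dl at lncRNA:CR46204 (52 bp). Dif and dl each had 2 IDR summits within 500 bp of a TSS of their own. Without Dif and dl, Toll genes with an IDR summit at a TSS were spz, Tl, Myd88, cact and Pli. Gprk2, Tl, Pli, Dif, dl and cact are longer than any member of the Imd core, so their windows are wider. No share over genes of like length was taken for the Toll list. The difference between the Imd core and the Toll genes was not tested, and the lists were chosen with earlier results of these data known.

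**Figure D4:**
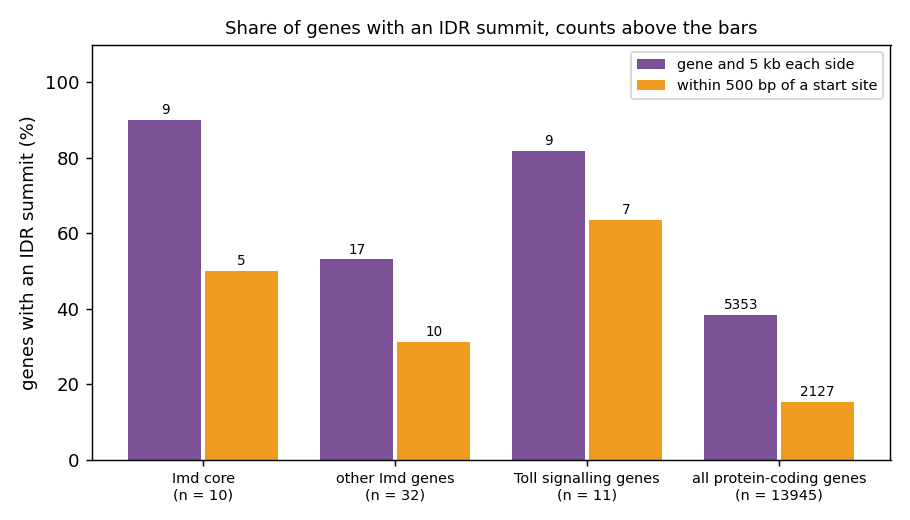
Percentage of genes with an IDR summit in the gene and 5 kb on each side (purple) or within 500 bp of a start site (orange), with the number of genes above each bar. The Imd core (9 and 5 of 10 genes) and the Toll signalling genes (9 and 7 of 11) stand above all protein-coding genes (38.4% and 15.3%), with the other Imd genes between (53.1% and 31.2%). The bars are not matched for gene length, and the Toll and other Imd lists hold genes longer than any of the Imd core.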

How the data were processed

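The authors deposited peak lists for dm6 and dm3, and the dm6 lists were used here. Per the deposited file listing, peaks and background (30000 regions a list) came from the alignment of replicate 3, of replicate 4 or of both, each with a further file that is also a parent of the control-normalized signal. The 4175 IDR peaks were derived from these 3 lists. The sources used here give no aligner, peak caller or version. The signal and the −log10 q-value of each peak are the authors' deposited values. How the signal was scaled is not stated in those sources, so it was ranked within a list. Files without counts leave the depth unknown.

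Summits were placed in 1-based dm6 coordinates against Ensembl release 115 genes, transposable elements left out, and sequence was read from RefSeq's Release 6 assembly. Counts were made with Python 3.11.15, NumPy 2.4.6 and pandas 2.3.3, and the counting was tested on simulated data. Summits within 100 bp counted as shared. With 1 group there is no comparison between groups and no test. The members and lists were chosen with earlier results of these data known. All 10 members were described, with the 5 genes of highest IDR signal in each other list, and further genes of those lists were named after their values were seen. Alternatives were other flanks, TSS distances, motif windows, distances for shared summits, a q of at most 0.01, the stronger part of the IDR list and each replicate alone.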

Additional observations from a re-analysis of the deposited data

How the results depend on the processing

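Of the alternatives run, 43 kept a count within 1.5 times the reported one and 14 moved it further. With the gene body alone, 3 of the 10 genes (in place of 9) held 3 summits (in place of 13), and 10 of the other Imd genes (in place of 17) had one. With 1 kb on each side the summits numbered 8, and they numbered 6 when each was given to its nearest TSS alone. Within 200 bp of a TSS, 3 genes had a summit (in place of 5). In the stronger part of the IDR list (signal above its median), 11 of the other Imd genes had one. No share of all protein-coding genes was taken for the gene body alone, 1 kb, 200 bp or the stronger part. Whether these counts stand above other genes at the same setting is therefore not known. Motif counts moved with the window. With 50 bp on each side, GGGAA was at 1, DRE at 0 and CACGTG at 0 of the 13 summits. With 250 bp, GGGAA was at 7, the broad κB motif at 1, CAGCTG at 2 and GATAAG at 2. Shares of all IDR windows were not taken at these widths. With replicate 4 or replicate 3 alone, by its strongest 4175 peaks, 8 and 9 of the 10 genes had a summit in the window, with 16 and 12 summits. No share of all protein-coding genes was taken for these window counts. Within 500 bp of a TSS, 5 members had one in both, against 14.8% of protein-coding genes in replicate 4 and 15.6% in replicate 3. For replicate 4 the summits shared within 50 bp fell from 13 to 9. Those lost were the own-TSS summits of Tab2 and Rel and the neighbour summits at Kdm2 and msps. No paired analysis was possible because there is 1 group. Depth is unknown, so a missing peak cannot be read as the absence of Dif.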

Other observations

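The ben peak held the 10-base stretch GCTAAGCGCT at 2 places on the printed strand, the first under its summit. This was the longest stretch found more than once in that run, and it was looked for after the sequence had been seen. On either strand, GCTAAGCGCT was found in 2 of the 4175 IDR windows (0.0479%), the ben window among them, and in 0.0623% of promoters. The promoter stretches are longer than these windows. No factor was assigned to GCTAAGCGCT. In runs not printed here, the longest repeated stretch was ATACATACATA (11 bases) at su(sable) and AAATACCAAA (10 bases) at Kdm2. They were in 0.527% and 0.287% of IDR windows. For Tak1, msps and RpL36 the longest was 7 bases. A repeated stretch of this length is thus not particular to ben. No expected share for a 10-base stretch was computed.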
